A study of Mus musculus with 6 samples.

Results

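Somatostatin GABA neurons of the mouse preoptic region were taken as droplet barcodes that passed limits on genes and mitochondrial counts, held transcripts of neurons and of GABA synthesis or transport, and carried at least 10 UMIs of Sst (a UMI, or unique molecular identifier, marks 1 captured transcript). They numbered 448 of 12580 GABA neurons (3.56%, exact binomial 95% interval 3.24 to 3.90%, which covers counting error only) and of 31299 barcodes in all. A GABA neuron had at least 4 UMIs of Snap25 and Syt1 together, at least 3 of Gad1, Gad2 and Slc32a1 together, none of Slc17a6 and at most 1 of Mog, Cx3cr1 and Cldn5 together. Within the 448 neurons, 120 had at least 5 UMIs of Npy (Npy-high; 26.8%, exact binomial 95% interval 22.7 to 31.1%), 49 had 1 to 4 and 279 had none (Npy-zero). The cells were chosen by these measured UMIs, so Sst, Npy and the other genes of the rule are described here and not tested. Cells came from 3 female and 3 male libraries. Every library pooled 3 animals; their age was 60 to 70 days, and each had been housed singly for 3 days. Fresh tissue was broken up with protease, live cells were enriched by flow sorting, and libraries were made on the 10x Chromium droplet platform. No strain, transgene or other treatment is given in the labels. Differences among single mice of a pool cannot be seen. The question the samples address is which cell types the preoptic region holds and whether they differ between females and males.

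Somatostatin is a peptide that inhibits its target cells through Gi-coupled receptors (Sstr1 to Sstr5), and in the hypothalamus it is best known for restraining growth hormone release. Neuropeptide Y, encoded by Npy, acts through Y receptors and is known for its part in feeding and in the damping of transmitter release. In cortex and striatum, somatostatin interneurons arise from the medial ganglionic eminence under the transcription factors Nkx2-1, Lhx6, Sox6 and Satb1. A rare class of cortical interneurons combines Sst, Npy, Nos1, Chodl and Tacr1 and sends axons over long distances. Both peptides are cut from larger precursors in dense-core granules and are often stored beside GABA.

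The stretches before the starts of Sst and Npy are shown because these genes define the cells, each as the 250 bases before the annotated start on the gene's own strand (RefSeq, GRCm38.p6). Sst lies on the minus strand and its window is chr16:23890845-23891094. Npy lies on the plus strand and its window is chr6:49822460-49822709. Capitals mark the letters TGACGTCA, the cyclic AMP response element, which was defined in the promoter of the rat somatostatin gene.
Sst: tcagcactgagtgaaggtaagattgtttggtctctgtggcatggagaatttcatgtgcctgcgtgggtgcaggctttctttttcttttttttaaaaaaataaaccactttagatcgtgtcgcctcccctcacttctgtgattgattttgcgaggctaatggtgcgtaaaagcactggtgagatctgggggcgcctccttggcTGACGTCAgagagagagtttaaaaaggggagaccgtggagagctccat
Npy: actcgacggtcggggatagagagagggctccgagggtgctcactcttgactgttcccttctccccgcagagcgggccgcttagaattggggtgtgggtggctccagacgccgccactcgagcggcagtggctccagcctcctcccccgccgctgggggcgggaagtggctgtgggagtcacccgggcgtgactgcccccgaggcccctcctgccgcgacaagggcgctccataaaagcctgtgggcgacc
The match in Sst begins 48 bases before the start, and these letters, which read the same on both strands, are absent from the Npy window. Of 32851 windows of this length, 508 (1.55%) held a match. The windows before the RefSeq starts of Cort, Chodl, Crhbp and Tacr1 held none.

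The library totals ran from 1278429 to 81162330 UMIs, and the 448 neurons were unevenly spread. Female replicates 1, 2 and 3 gave 76, 164 and 4 of them, and male replicates 1, 2 and 3 gave 93, 102 and 9. Values per library are UMIs per 1000000 UMIs (CPM) of the summed cells of that library. Gene levels were compared only in libraries with at least 5 cells in each group compared. That left female replicate 3 out of every fit of gene levels, and male replicate 3 out of those that needed Npy-high cells. The share of GABA neurons with at least 10 Sst UMIs was compared between sexes over all libraries. The Npy-high share was compared over libraries with at least 5 somatostatin neurons, male replicate 3 among them. Across all libraries 484 barcodes were seen more than once, none of them between 2 of these neurons, and 12 of the neurons had a barcode that also occurred in another library. Oligodendrocytes, which should lack both peptides, gave the background of free RNA. Of 5547, 15.6% had an Sst UMI and 5.39% an Npy UMI, at a median depth of 4836 UMIs, against 9666.5 UMIs in the somatostatin neurons. The Sst share was 11.9%, 30.9% and 0% in the female and 12.4%, 11.2% and 6% in the male libraries. The highest value in an oligodendrocyte was 7 UMIs of Sst and 3 of Npy, so none reached either limit. Among markers outside the rule, Slc17a7, which marks glutamate neurons, had no UMI in somatostatin neurons of the 5 libraries with at least 5 of them. It was nearly absent from other GABA neurons too, at a mean of 0.0136 CPM. Slc17a8, also listed as a glutamate neuron marker, had 2.79 CPM in somatostatin neurons of female replicate 2 and 2.16 CPM in those of male replicate 2. The listed glutamate neuron markers together summed to 0 to 24.9 CPM in somatostatin neurons.

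Sst was carried at very different levels by these neurons, and the highest carriers were mostly those with Npy. The median was 42 Sst UMIs per neuron, with a range of 10 to 1205. The Npy-high neurons had a median of 188.5 Sst UMIs and 61 Npy UMIs, the Npy-zero neurons a median of 28 Sst UMIs. In summed cells Sst reached 23700 ± 5056 CPM in Npy-high neurons (SD, n = 4) and 4360 ± 443 CPM in Npy-zero neurons (n = 5). Npy itself reached 13414 ± 2123 CPM in Npy-high neurons, so both peptides together took several percent of all their transcripts.

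The share of neurons with at least 5 Npy UMIs was far larger in the top range of Sst than below it. It was 1.23% of the 8938 GABA neurons with no Sst UMI, 11.9% of the 135 with 20 to 49, 17.1% of the 82 with 50 to 99, and 71.3% of the 115 with 100 or more. Just inside the limit, at 10 to 12 Sst UMIs, 3 of 42 neurons were Npy-high (7.14%). Just outside it, at 7 to 9, 9 of 66 were (13.6%). Seen from Npy, 60 of the 65 neurons with at least 50 Npy UMIs had 100 or more Sst UMIs (92.3%), against 28 of the 279 Npy-zero neurons (10.0%). These counts describe what the limits selected and carry no test.

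**Figure D1:**
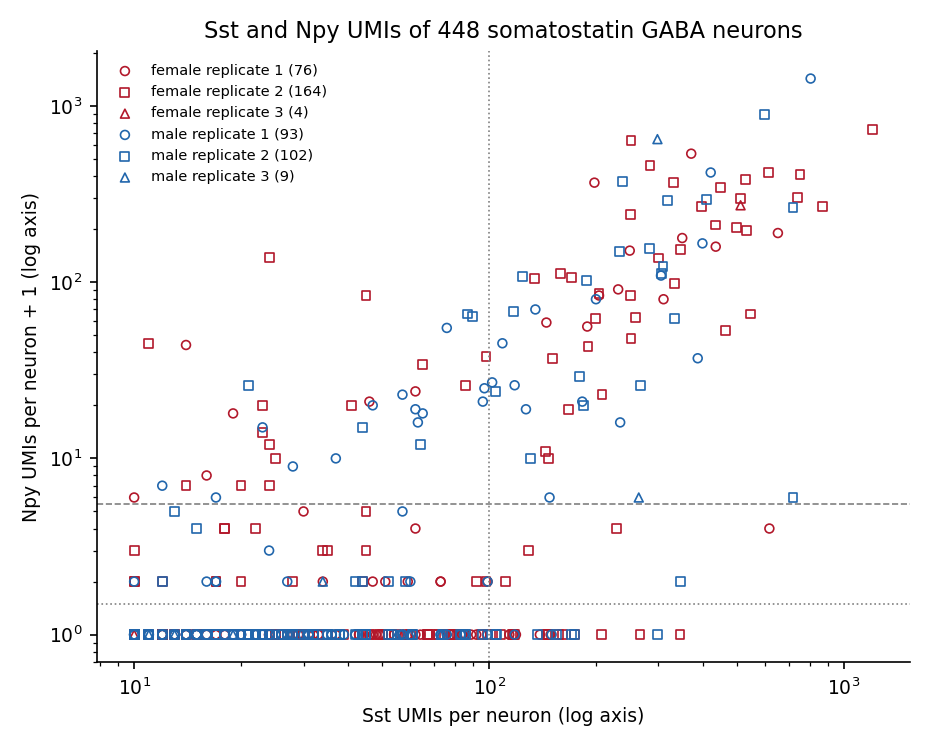
Sst UMIs (x, log axis) and Npy UMIs plus 1 (y, log axis) in each of the 448 somatostatin GABA neurons, by library; dashed and dotted lines mark 5 Npy UMIs, 0 Npy UMIs and 100 Sst UMIs. Neurons with 100 or more Sst UMIs were mostly Npy-high (82 of 115), while the 279 neurons without Npy lie along the bottom, most of them at lower Sst.

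Npy-high somatostatin neurons differed from Npy-zero ones in a set of genes that included Nos1, Chodl, Crhbp and Tacr1. Over 4 libraries, 263 of 6806 genes tested passed (3.86%), 168 higher (2.47%) and 95 lower (1.4%) in the Npy-high neurons (edgeR quasi-likelihood test with the library as block, Benjamini-Hochberg adjusted p under 0.05). Without female replicate 2, which gave 49 of the Npy-high neurons, 148 genes passed. Because Sst differed so strongly between these groups, the fit was repeated within ranges of Sst, an alternative added after the data were seen. Over all libraries, 82 Npy-high and 28 Npy-zero neurons had at least 100 Sst UMIs, and 38 and 251 had 10 to 99. Only libraries with at least 5 cells in both groups were fitted. At 100 or more, these were female replicates 1 and 2 and male replicate 2. They gave 11, 35 and 19 Npy-high and 5, 14 and 7 Npy-zero neurons. At 10 to 99, they were female and male replicates 1 and 2, with 44, 80, 55 and 63 Npy-zero neurons. The fits called 74 of 2959 and 14 of 5170 genes, of which 56 and 13 were among the 263. Even at 100 or more, the median Sst count over all libraries was 265.5 in Npy-high and 145.5 in Npy-zero neurons, so Sst was matched only in part.

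Chodl, a membrane protein with a lectin domain (chr16:78930948-78951733), had 116, 178, 206 and 161 CPM in Npy-high neurons of female replicates 1 and 2 and male replicates 1 and 2, against 9.59, 15.1, 10.3 and 12.5 CPM in Npy-zero neurons. Every Npy-high value lay far above every Npy-zero value, and the log2 change was 3.79 ± 0.22 (SE; edgeR adjusted p = 1.18e-11). Among neurons with at least 100 Sst UMIs it was 3.48 ± 0.47 (edgeR adjusted p = 9.6e-05), from 192 ± 18.7 CPM in Npy-high and 19.1 ± 24.7 CPM in Npy-zero neurons (SD, n = 3). At 10 to 99 Chodl did not pass the filter on low counts, with 18 UMIs in Npy-high and 27 in Npy-zero neurons.

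Nos1, the neuronal nitric oxide synthase (chr5:117781032-117958840), had 158, 325, 295 and 304 CPM in the Npy-high neurons of the same 4 libraries, against 40.3, 44.3, 37.2 and 48.3 CPM in Npy-zero neurons. The groups did not overlap, female replicate 1 was the lowest of the Npy-high values, and the log2 change was 2.75 ± 0.18 (edgeR adjusted p = 2.24e-11). Among neurons with at least 100 Sst UMIs it was smaller, 1.06 ± 0.29 (edgeR adjusted p = 0.0479), with 324 ± 81.9 CPM in Npy-high and 209 ± 120 CPM in Npy-zero neurons. At 10 to 99 Sst UMIs it was 1.79 ± 0.41 and did not pass (edgeR adjusted p = 0.0834). All Npy-zero neurons together averaged 42.5 ± 4.84 CPM (SD, n = 4). Nos1 had a UMI in 56.7% of Npy-high and 17.6% of Npy-zero neurons, against 0.775% of oligodendrocytes (38.3%, 7.53% and 0.292% with cells thinned to 2000 UMIs). Nos1 overlaps the annotated genes Gm37028 on its own strand and Gm26995 on the other; the strand of counting is not given, so overlapping genes cannot be told apart.

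Crhbp, a secreted protein that binds corticotropin-releasing hormone (chr13:95431371-95444924), had 300, 204, 206 and 437 CPM in Npy-high neurons, against 1.92, 33, 24.8 and 15.6 CPM in Npy-zero neurons. All 4 Npy-high values were above all Npy-zero values, with a log2 change of 3.78 ± 0.29 (edgeR adjusted p = 6.01e-10), and of 2.69 ± 0.39 at 100 or more Sst UMIs (edgeR adjusted p = 0.000169). In that range Crhbp averaged 352 ± 77.8 CPM in Npy-high and 33.1 ± 47.5 CPM in Npy-zero neurons, the latter from 18 UMIs (SD, n = 3). At 10 to 99 Crhbp did not pass the filter on low counts, and Npy-high neurons were very uneven (249 ± 331 CPM). Tacr1, the receptor of substance P (chr6:82402334-82560104), had 52.6, 65.3, 74.8 and 50.6 CPM in Npy-high neurons and 5.75, 7.54, 10.3 and 3.12 CPM in Npy-zero neurons, a log2 change of 3.22 ± 0.35 (edgeR adjusted p = 5.64e-07). It was too low to be tested within either range of Sst.

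These 4 genes were called higher in the same Npy-high neurons, so a larger share of neurons with them there was fixed in advance. Nos1, Chodl, Crhbp and Tacr1 had a UMI in 56.7%, 50.8%, 40.8% and 39.2% of Npy-high neurons. Whether they met in single neurons more often than these rates alone would give was not tested. At least 2 of the 4 had a UMI in 73 of 120 Npy-high neurons (60.8%), 5 of 49 with 1 to 4 Npy UMIs (10.2%) and 17 of 279 Npy-zero neurons (6.09%), against 465 of 12132 other GABA neurons (3.83%) and 1 of 5547 oligodendrocytes (0.018%). Median depths were 9167 UMIs in Npy-high, 9770 in Npy-zero and 7259 in other GABA neurons. With every cell thinned to 2000 UMIs, the counts were 29 of 120, 1 of 279 and 45 of 12090 in these 3 groups. All 4 genes were present in 13 Npy-high neurons, each with at least 100 Sst UMIs, and in none of the 279 Npy-zero neurons. The share followed Sst as well: it was 74.4% of the 82 Npy-high neurons with at least 100 Sst UMIs and 31.6% of the 38 with fewer, 25% of the 28 Npy-zero neurons with at least 100 and 3.98% of the 251 with fewer.

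**Figure D2:**
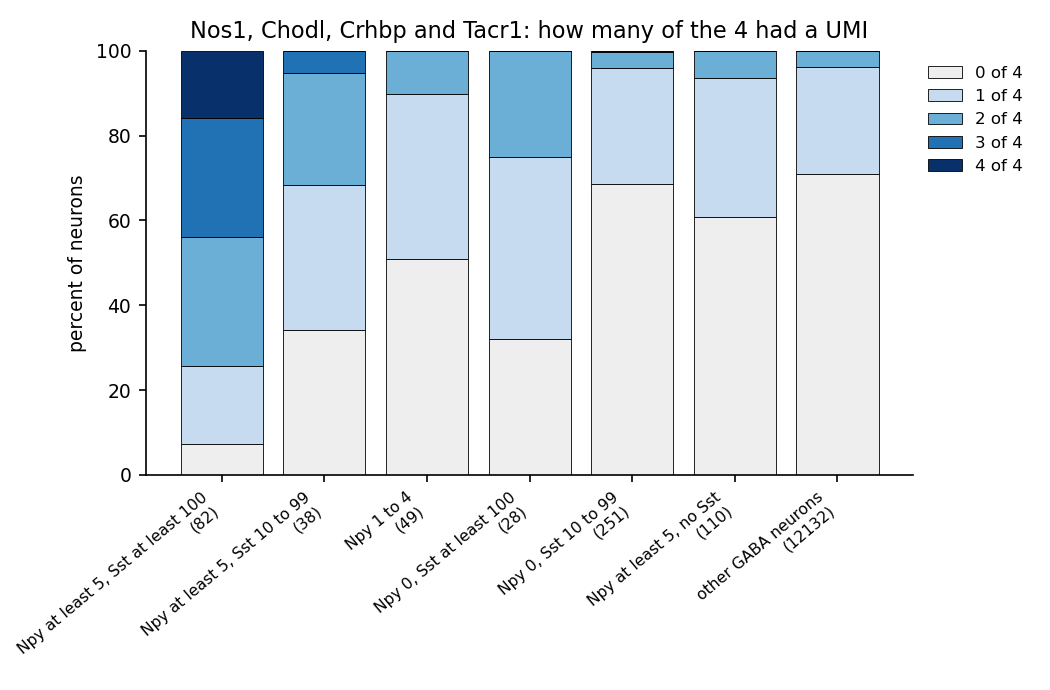
Percent of neurons (y) in which 0, 1, 2, 3 or 4 of Nos1, Chodl, Crhbp and Tacr1 had at least 1 UMI, in 7 groups of GABA neurons (x, number of neurons in brackets). Neurons with both Npy and at least 100 Sst UMIs stand apart, with at least 2 of the 4 genes in 74.4%.

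The marker list of this cortical class was drawn up with results of these cells known, so its count is no independent evidence. Of 17 markers of the cortical interneurons with Sst, Npy and Nos1, 13 passed the filter on low counts, and 9 of these rose and none fell (Nos1, Chodl, Tacr1, Crhbp, Gucy1a3, Gucy1b3, Ptn, Sfrp1 and Pnoc), with a median log2 change of 1.13 against -0.000291 over all genes tested. Gucy1a3, a subunit of the nitric oxide receptor guanylyl cyclase, averaged 156 ± 6.80 CPM in Npy-high and 73.6 ± 8.43 CPM in Npy-zero neurons (SD, n = 4), a log2 change of 1.18 ± 0.17 (edgeR adjusted p = 3.6e-05). It did not pass at 100 or more Sst UMIs (1.18 ± 0.33, edgeR adjusted p = 0.0504) or at 10 to 99 (0.79 ± 0.29, edgeR adjusted p = 0.518). Its partner subunit Gucy1b3 rose by 0.71 ± 0.16, a call lost when female replicate 1 or male replicate 2 was left out, and in both ranges of Sst (edgeR adjusted p = 0.441 and 0.47). Cort, which encodes the somatostatin-like peptide cortistatin, was too sparse to test: it had 152, 16.3, 56.1 and 23 CPM in Npy-high neurons, with 26 of 54 UMIs in 1 cell, against 2.24 ± 1.65 CPM in Npy-zero neurons.

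Other genes named by the size of their rise were Nxph2 (a neurexophilin), Fam46a, Ramp3 (which modifies receptors of the calcitonin family), Gpc4 (a glypican), Serpinb1b, Tox3, Moxd1 and Man1a (a mannosidase that trims sugars on new proteins). Their log2 changes ran from 1.99 ± 0.24 for Man1a to 3.64 ± 0.43 for Nxph2. Naming required a call and the same sign in every library, so their agreement between libraries is no added evidence. No omission of 1 library ended a call. Fam46a averaged 147 ± 23.8 CPM in Npy-high and 20 ± 7.84 CPM in Npy-zero neurons, and it passed in both ranges of Sst, with 1.91 ± 0.42 at 100 or more and 2.88 ± 0.43 at 10 to 99 UMIs (edgeR adjusted p = 0.0117 and 0.00249). Man1a passed at 100 or more (2.01 ± 0.41, edgeR adjusted p = 0.0049), where Nxph2 missed the threshold (1.93 ± 0.54, edgeR adjusted p = 0.0521). Moxd1 passed at 10 to 99 (2.21 ± 0.42, edgeR adjusted p = 0.0226) but not at 100 or more (1.03 ± 0.38, edgeR adjusted p = 0.198), and Tox3 did not pass at 10 to 99 (1.49 ± 0.46, edgeR adjusted p = 0.345). Ramp3, Gpc4 and Serpinb1b were too low to be tested in either range.

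**Figure D3:**
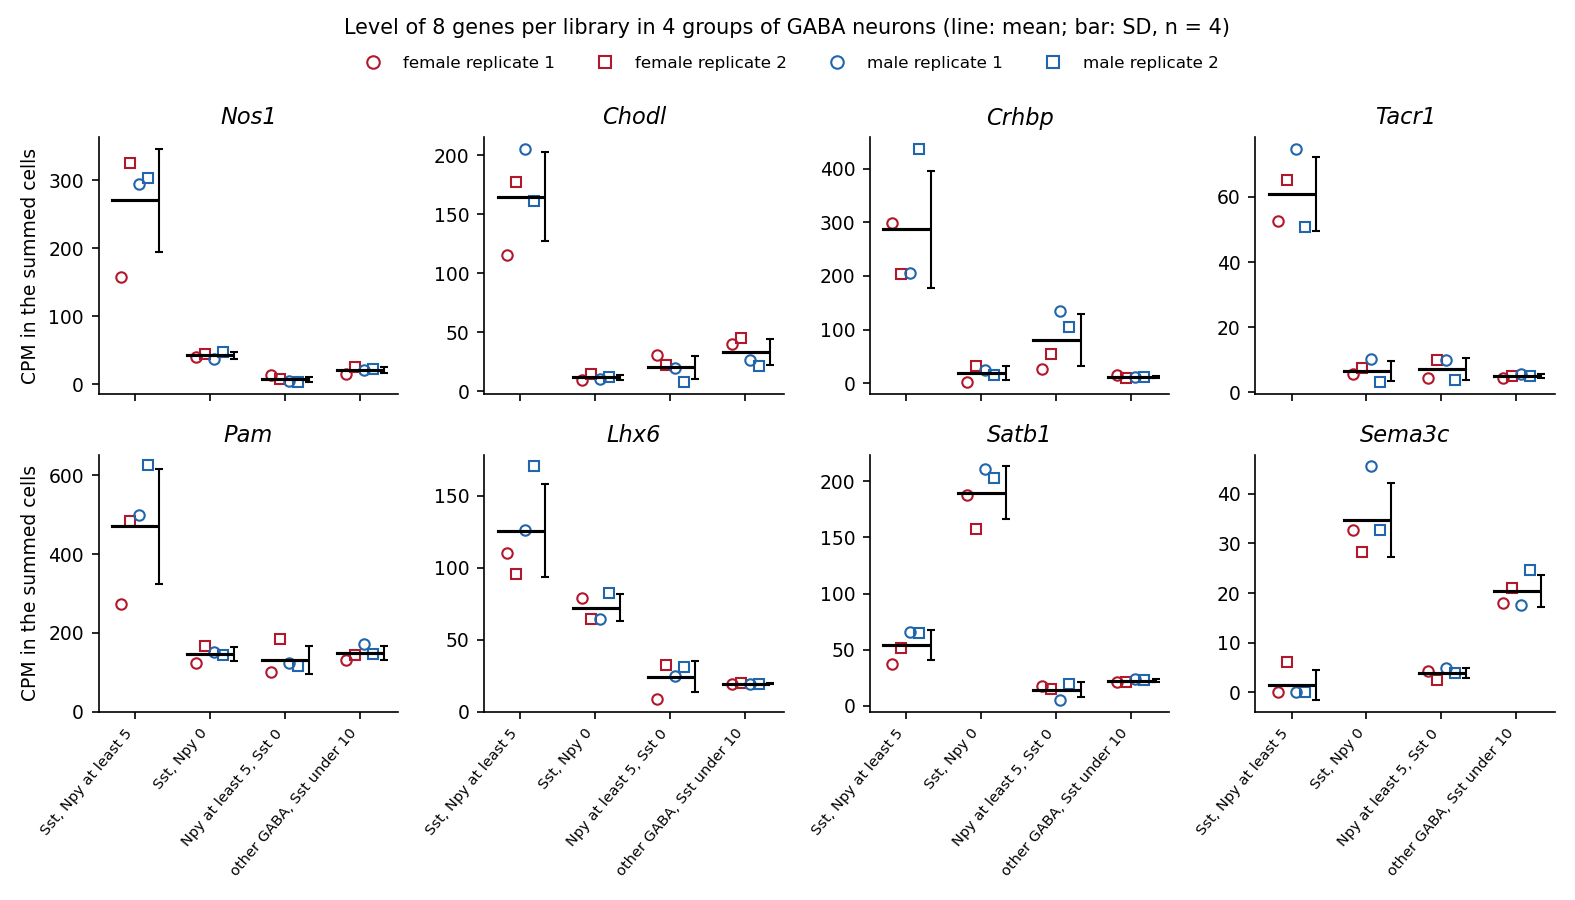
CPM (y) of 8 genes in each of 4 libraries for 4 groups of GABA neurons (x), from left to right Npy-high and Npy-zero somatostatin neurons, Npy-high neurons without Sst, and other GABA neurons; the line is the mean and the bar the SD (n = 4). Nos1, Chodl, Crhbp, Tacr1 and Pam were highest in the first group, Satb1 in the second.

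Transcription factors separated the groups in both directions. Of 24 factors of the medial ganglionic eminence and of interneuron fate, 15 were tested; Lhx6, Nkx2-1, Sox6, Sp9 and Nxph1 (a neurexophilin listed with them) rose and Satb1 fell, with a median of -0.00571. Lhx6 (chr2:36081953-36105408) had 110, 95.9, 126 and 170 CPM in Npy-high neurons and 78.6, 64.1, 64.1 and 82.7 CPM in Npy-zero neurons. The groups did not overlap, the log2 change was 0.84 ± 0.18 (edgeR adjusted p = 0.00416), and the call ended without male replicate 2. Sox6 averaged 146 ± 33.1 CPM in Npy-high and 65.5 ± 11.1 CPM in Npy-zero neurons, a log2 change of 1.28 ± 0.19 (edgeR adjusted p = 9.31e-05). Among neurons with at least 100 Sst UMIs neither passed, with Lhx6 at 0.45 ± 0.31 and Sox6 at 0.68 ± 0.34 (edgeR adjusted p = 0.639 and 0.427). At 10 to 99 the values were 0.29 ± 0.32 and 0.39 ± 0.34, and neither passed (edgeR adjusted p = 0.967 and 0.933).

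Satb1, a chromatin organiser of maturing somatostatin interneurons (chr17:51736187-51833290), went the other way. It had 36.8, 51.0, 65.5 and 64.4 CPM in Npy-high neurons, against 188, 157, 211 and 203 CPM in Npy-zero neurons. The groups were far apart, with a log2 change of -1.69 ± 0.18 (edgeR adjusted p = 6.65e-07), and the fall stood in both ranges of Sst, at -1.62 ± 0.33 with 100 or more UMIs and -2.57 ± 0.35 with 10 to 99 (edgeR adjusted p = 0.00587 and 0.00112). The means were 54.4 CPM in Npy-high and 190 CPM in Npy-zero neurons, beside 19.9 ± 5.27 CPM in other GABA neurons (SD, n = 5). Satb1 overlaps several unnamed transcripts on both strands.

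Of 40 patterning factors of hypothalamus and telencephalon, 15 were tested and 4 fell (Isl1, Zic1, Zfhx3 and Zfhx4), none rose, and the median was -0.46. Zfhx4 averaged 6.61 ± 3.94 CPM in Npy-high and 28.8 ± 6.05 CPM in Npy-zero neurons, a log2 change of -2.26 ± 0.51 (edgeR adjusted p = 0.00703). Leaving out female replicate 2 or male replicate 2 ended the calls of Zic1 and Zfhx3, and Zfhx3 stood at -0.50 without female replicate 2, against -1.15 with it. Sema3c, a secreted guidance cue (chr5:17574281-17730268), had 3 UMIs in the Npy-high and 90 in the Npy-zero neurons, a ratio of summed shares of 0.0812 (95% counting interval 0.0164 to 0.245). All 3 lay in female replicate 2, and the fitted log2 change was -3.45, or -6.80 without that library. The other genes named by the size of their fall were Arhgap36, Lmo1, Rprml, Spon1 (F-spondin), Adarb2, B3galt1, BC048546, Id4 and Gfra1 (a GDNF receptor). Their log2 changes ran from -2.20 ± 0.36 for Arhgap36 to -1.56 ± 0.44 for Gfra1, and the calls of Lmo1, Rprml, Adarb2 and Gfra1 ended without at least 1 library. Lmo1 lost it when female replicate 1 or male replicate 2 was left out and stood at -3.20, against -2.12, without male replicate 1. Rprml lost its call without female replicate 2. Leaving out female replicate 1 or male replicate 2 ended that of Adarb2, and leaving out either of these or male replicate 1 ended that of Gfra1. At 10 to 99 Sst UMIs, Arhgap36, Rprml, Spon1, B3galt1, BC048546 and Id4 could be tested, at log2 changes of -2.57 ± 0.68 (Spon1) to -1.55 ± 0.64 (Id4), and none passed (edgeR adjusted p = 0.165 to 0.613); at 100 or more none of the 9 could be tested.

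Of 20 genes that make and store peptides 19 were tested, and 8 rose in the Npy-high neurons (Pcsk2, Pam, Scg2, Chgb, Vgf, Resp18, Ptprn and Baiap3), while 2.47% of all genes tested did. The other 11 did not pass, 15 of the 19 had a positive log2 change, and the median was 0.28. Pam, the enzyme that amidates peptides such as neuropeptide Y (chr1:97795114-98095646), had 273, 484, 500 and 626 CPM in Npy-high neurons and 123, 166, 151 and 143 CPM in Npy-zero neurons. The groups did not overlap, and the log2 change of 1.74 ± 0.13 (edgeR adjusted p = 6.01e-10) was 1.35 ± 0.24 and 1.35 ± 0.22 in the higher and lower range of Sst (edgeR adjusted p = 0.00188 and 0.00466). Scg2, a granin of secretory granules, averaged 1475 ± 245 CPM in Npy-high and 835 ± 109 CPM in Npy-zero neurons, a log2 change of 0.87 ± 0.10 (edgeR adjusted p = 8.04e-07) that also passed in both ranges (1.20 ± 0.18 and 0.95 ± 0.14). Vgf, a granule protein and source of peptides, averaged 364 ± 122 CPM in Npy-high and 145 ± 15.7 CPM in Npy-zero neurons and rose by 1.45 ± 0.16 (edgeR adjusted p = 8.04e-07). It passed at 100 or more Sst UMIs (2.36 ± 0.25, edgeR adjusted p = 2.49e-06) and not at 10 to 99 (0.80 ± 0.24, edgeR adjusted p = 0.318).

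Of 29 other neuropeptide genes only 9 were tested, and Penk, Pnoc and Vgf rose. Penk, the enkephalin precursor, had 1380, 149, 542 and 285 CPM in Npy-high neurons and 242, 152, 469 and 131 CPM in Npy-zero neurons. The groups overlapped, 1 cell held 190 of 520 Penk UMIs of the Npy-high neurons, and the log2 change of 1.08 became 0.43 without female replicate 1, where the call ended. Penk passed at 100 or more Sst UMIs (2.81 ± 0.27, edgeR adjusted p = 7.64e-07) and not at 10 to 99 (1.21 ± 0.34, edgeR adjusted p = 0.238). At 100 or more, Penk averaged 685 ± 882 CPM in Npy-high neurons, from 291 UMIs (SD, n = 3). In Npy-zero neurons of that range it averaged 94.6 ± 107 CPM, from 21 UMIs. The SD in Npy-high neurons exceeded the mean, so this value was very uneven between libraries. Pnoc, the nociceptin precursor, averaged 152 ± 46.4 CPM in Npy-high and 89.7 ± 38.3 CPM in Npy-zero neurons (0.79 ± 0.17, edgeR adjusted p = 0.00501), with overlapping groups, and did not pass in either range of Sst (edgeR adjusted p = 0.514 and 1). Gal had 147, 772, 14 and 9.21 CPM in Npy-high and 15.3, 49.9, 74.4 and 120 CPM in Npy-zero neurons. It and Nts were uneven between libraries, overlapped between groups and did not pass (edgeR adjusted p = 0.0585 and 0.141).

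Calcium-binding and excitability genes changed in both directions. Of 29, 21 were tested, Calb1, Kcnc2, Kcnab1 and Grin3a rose, and 4 fell, among them Calb2, Kcnip4 and Kcna2, with a median of -0.59. Calb1, the calcium buffer calbindin, had 641, 772, 524 and 539 CPM in Npy-high neurons and 257, 235, 225 and 267 CPM in Npy-zero neurons. The groups were well apart at a log2 change of 1.43 ± 0.11 (edgeR adjusted p = 9.42e-10). It was 2.18 ± 0.17 at 10 to 99 Sst UMIs and 0.46 ± 0.24 at 100 or more (edgeR adjusted p = 3.21e-07 and 0.457). Grin3a, an NMDA receptor subunit, averaged 127 ± 10.8 CPM in Npy-high and 50.2 ± 5.65 CPM in Npy-zero neurons (1.41 ± 0.18, edgeR adjusted p = 7.48e-06). It did not pass at 100 or more Sst UMIs (1.00 ± 0.34, edgeR adjusted p = 0.158) or at 10 to 99 (0.91 ± 0.37, edgeR adjusted p = 0.613).

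Of 37 peptide receptors 7 were tested, and Tacr1 rose. Npy2r, the Y2 receptor through which neuropeptide Y acts on its own terminals, had 47.3, 127, 108 and 152 CPM in Npy-high neurons and 71.0, 83.9, 59.9 and 81.1 CPM in Npy-zero neurons. Female replicate 1 went against the other libraries, and the log2 change of 0.63 ± 0.20 did not pass (edgeR adjusted p = 0.0808); without female replicate 1 it was 0.82 and passed (edgeR adjusted p = 0.00867). None of 7 steroid and metabolic hormone receptors tested passed, with Thra, a thyroid hormone receptor, at a log2 change of 0.11 ± 0.10.

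Some mitochondrial and early response genes also passed. Of 12 genes of the mitochondrial genome tested, 6 fell and none rose. The 13 listed ones summed to 26566 to 31917 CPM in Npy-high and 36305 to 44551 CPM in Npy-zero neurons. These sums and the marker sums below cover 4 libraries of Npy-high and 5 of Npy-zero neurons. The latter include male replicate 3, with 6 Npy-zero neurons, which was not in the fit. Snap25 and Syt1, which belong to the rule, stood lower as well, at 1213 ± 123 and 860 ± 81.1 CPM in Npy-high (SD, n = 4) and 1839 ± 237 and 1395 ± 87.1 CPM in Npy-zero neurons (n = 5). Of 27 early response and dissociation genes 15 were tested, 2 rose and 13 did not pass; 14 of the 15 had a positive log2 change, with a median of 0.60. The 2 were Fos and Jun, which rose by 0.82 ± 0.16 and 0.72 ± 0.15, except that male replicate 2 had less of both in Npy-high than in Npy-zero neurons (156 against 301 CPM of Fos), and both calls ended without female replicate 2. Of the mitochondrial genes, mt-Nd2, mt-Co1 and mt-Atp6 missed the threshold in both ranges of Sst, as did Fos and Jun. Leaving out female replicate 1 ended the calls of mt-Co1 and mt-Atp6 over all neurons, as did female replicate 2 for mt-Co1 and male replicate 2 for mt-Atp6. Oligodendrocyte markers summed to 783 to 1763 CPM in Npy-high and 978 to 1601 CPM in Npy-zero neurons and none of 8 was called. Striatal projection neuron markers summed to 497 to 2820 CPM in Npy-high and 836 to 1321 CPM in Npy-zero neurons, with Drd1 (1.93 ± 0.42, which ended without male replicate 1) and Penk called of 8 tested. The part of these shifts in the other changes was not tested.

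**Figure D4:**
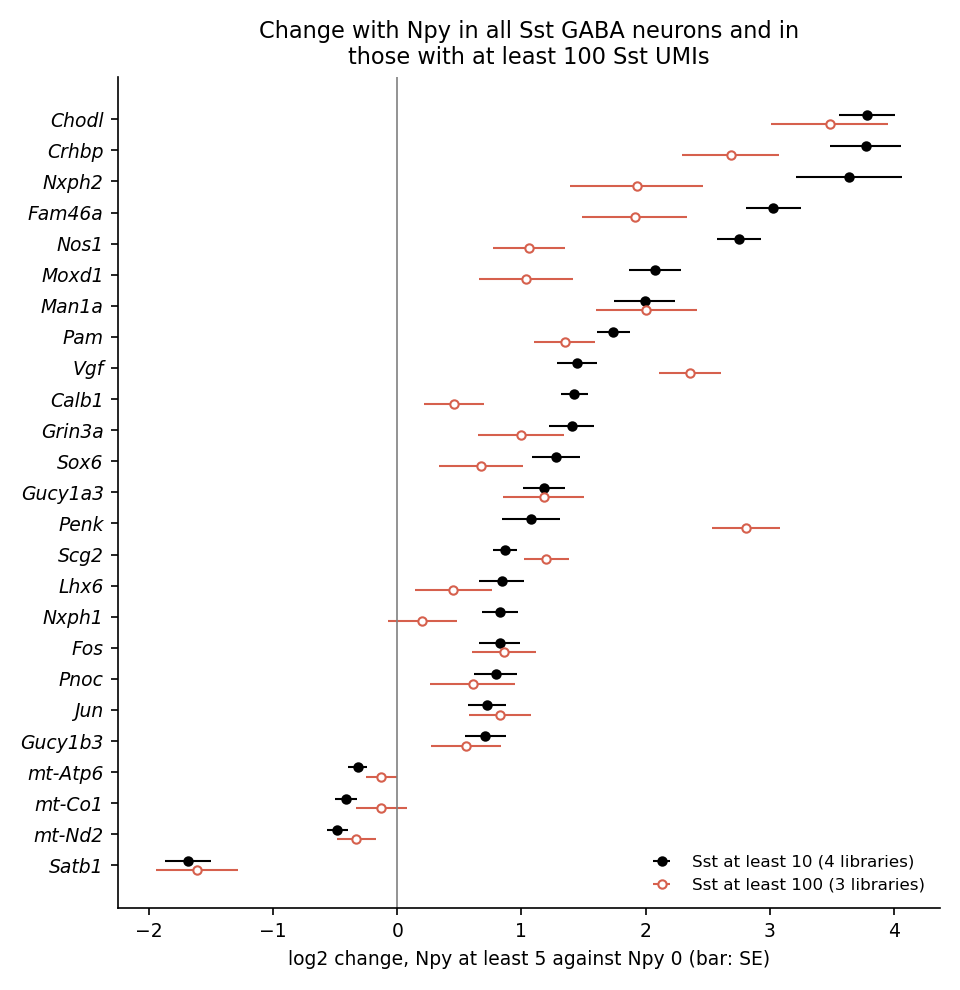
Log2 change between Npy-high and Npy-zero somatostatin neurons (x, bar: SE) of the named genes called in the comparison of all these neurons (black, 4 libraries) that could also be tested at 100 or more Sst UMIs (open red, 3 libraries). Chodl, Man1a and Satb1 had similar values in both, and Vgf, Penk and Scg2 larger ones at 100 or more. Many were smaller at 100 or more, among them Crhbp, Nxph2, Fam46a, Nos1, Moxd1, Calb1, Sox6, Lhx6 and Nxph1. The Penk value at 100 or more rests on a very uneven level in Npy-high neurons (685 ± 882 CPM, SD, n = 3).

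Against the rest of the GABA neurons, the somatostatin neurons as a whole carried Sfrp1, interneuron fate factors and the receptors Oxtr and Npy2r at higher levels, and patterning factors, striatal markers and other neuropeptides at lower ones. Over 5 libraries 2113 of 11193 genes passed (18.9%), 1125 higher (10.1%) and 988 lower (8.83%); the somatostatin neurons include the Npy-high and Npy-zero neurons compared above. The 448 neurons were deeper than the 12132 others, at a median of 9666.5 against 7259 UMIs. With every cell thinned to 2000 UMIs, 604 genes passed.

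Sfrp1, a secreted Wnt antagonist, had 183, 118, 137, 161 and 217 CPM in somatostatin neurons of female replicates 1 and 2 and male replicates 1, 2 and 3, against 6.32 ± 0.929 CPM in other GABA neurons (SD, n = 5). All 5 libraries showed the same gap, with a log2 change of 4.56 ± 0.12 (edgeR adjusted p = 2.26e-40). Of the 24 fate factors 23 were tested, 13 rose and Etv1 fell, with a median of 0.51 against -0.0107 over all genes. Lhx6 averaged 79.9 ± 14.2 CPM in somatostatin and 20.4 ± 1.90 CPM in other GABA neurons (2.10 ± 0.11), Sox6 82.9 ± 7.2 against 12.9 ± 3.49 CPM (2.65 ± 0.12) and Satb1 156 ± 26.6 against 19.9 ± 5.27 CPM (2.79 ± 0.10). Maf, Dlx1, Dlx2 and Erbb4 were among the others that rose.

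Among peptide receptors 20 of 37 were tested, 7 rose and 5 fell. Oxtr, the oxytocin receptor, had 20.4, 13.9, 33.7, 38.9 and 41.4 CPM in somatostatin neurons, against 3.28 ± 1.08 CPM in other GABA neurons, a log2 change of 3.17 ± 0.23 (edgeR adjusted p = 1.26e-17). Npy2r had 64.7, 96, 71.2, 97.3 and 114 CPM in somatostatin neurons, against 20.5 ± 4.11 CPM in other GABA neurons (2.01 ± 0.11, edgeR adjusted p = 1.95e-23). The Y receptors went in both directions: Npy1r and Npy5r fell, at log2 changes of -0.85 ± 0.29 and -1.16 ± 0.36, from 28 and 15 UMIs in the somatostatin neurons. Leaving out female replicate 2 or male replicate 2 ended both calls, and leaving out male replicate 1 that of Npy1r; Npy1r stood at -1.41 without female replicate 1. Somatostatin receptors were low in both sets, with Sstr1 at 11.6 ± 8.42 CPM in somatostatin and 5.40 ± 1.37 CPM in other GABA neurons (1.32 ± 0.26) and Sstr2 at 20.2 ± 6.34 against 8.97 ± 2.24 CPM (1.05 ± 0.20). Galr1, Tacr1 and Avpr1a also rose. In female and male replicates 1 and 2, Tacr1 stood at 3.12 to 10.3 CPM in Npy-zero somatostatin neurons and 4.52 to 5.68 CPM in other GABA neurons.

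Of 30 patterning factors tested, 23 fell and 2 rose (Bcl11b and Pou3f3), with a median of -1.16. Meis2 averaged 94.6 ± 31.5 CPM in somatostatin and 262 ± 45.3 CPM in other GABA neurons (-1.31 ± 0.08, edgeR adjusted p = 7.08e-21). Foxp2 and Rorb fell, at log2 changes of -2.05 ± 0.13 and -2.12 ± 0.15. Striatal projection neuron markers fell in 10 of 11 tested, with Ppp1r1b at 34.9 ± 26.3 against 319 ± 93.3 CPM and Adora2a at 3.64 ± 3.75 against 27.7 ± 6.43 CPM in somatostatin and other GABA neurons. Other neuropeptides fell in 14 of 19 tested, with Vip at -4.48 ± 0.17, Avp at -4.03 ± 0.09 and Penk at -1.58 ± 0.10 on the log2 scale. Cort (3.08 ± 0.31) and Tac1 rose. Over the libraries fitted in the Npy split, Cort had 54 UMIs in Npy-high and only 7 in Npy-zero somatostatin neurons. Avp averaged 48 ± 30.8 CPM in somatostatin and 687 ± 418 CPM in other GABA neurons (SD, n = 5 each), with at most 4 UMIs in any somatostatin neuron; the part of free RNA in this low level was not tested.

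Of 20 peptide processing genes 5 rose and 9 fell. Pam rose by 0.69 ± 0.07, but Scg2 averaged 897 ± 203 CPM in somatostatin and 1507 ± 220 CPM in other GABA neurons (-0.64 ± 0.05). Among 29 excitability genes 12 rose, including Kcnip1 (1.40 ± 0.09), Kcnmb4 (1.27 ± 0.14), Scn1a (0.92 ± 0.08) and the potassium channel gene Kcnc2, and 8 fell. Chodl had 47.1 ± 15.2 CPM in somatostatin and 32.4 ± 10.2 CPM in other GABA neurons (0.62 ± 0.14, edgeR adjusted p = 0.000411). The rises of Chodl and Pam did not extend to the Npy-zero somatostatin neurons. In female and male replicates 1 and 2, these had 9.59 to 15.1 CPM of Chodl, below the 21.4 to 45.6 CPM of other GABA neurons. Pam stood at 123 to 166 CPM in Npy-zero somatostatin neurons and 131 to 173 CPM in other GABA neurons of these libraries. Early response genes fell in 13 of 26 tested and mitochondrial genes in 12 of 13, with mt-Nd1 at -0.24 ± 0.04. Whether these bear on the other differences was not tested.

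**Figure D5:**
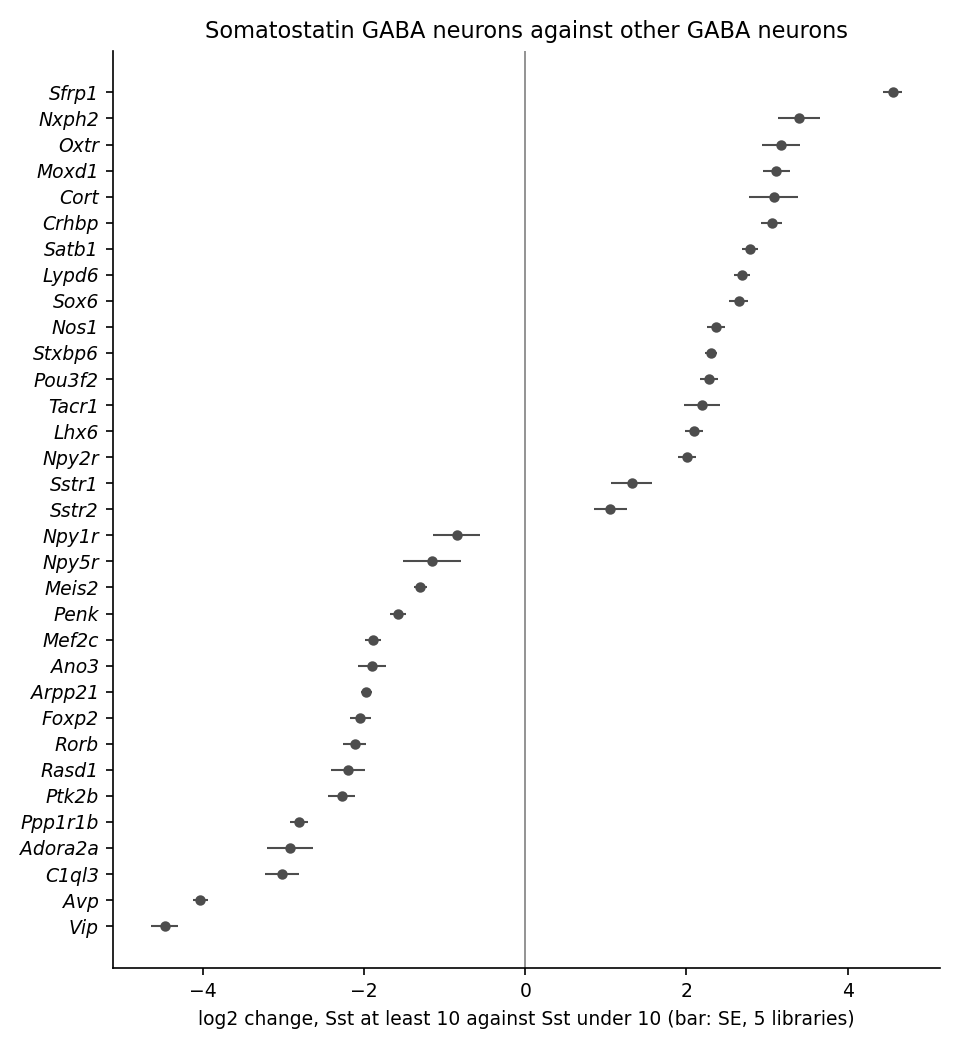
Log2 change between somatostatin GABA neurons and other GABA neurons (x, bar: SE, 5 libraries) of the genes named by size of change and of selected receptors, peptides and factors. Sfrp1 stands highest at 4.56 and Vip lowest at -4.48.

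Npy-high somatostatin neurons had more Nos1, Sfrp1, Chodl and Lhx6, and less Gal and Cck, than GABA neurons with Npy but no Sst. These 110 neurons had at least 5 Npy UMIs and no Sst UMI. Npy averaged 13414 ± 2123 CPM in the Npy-high somatostatin neurons and 1572 ± 279 CPM in the neurons without Sst, at median depths of 9167 and 9776 UMIs. Between Npy-high somatostatin neurons and these, 171 of 4146 genes passed (4.12%), 105 higher (2.53%) and 66 lower (1.59%); the Npy-high somatostatin neurons are the same cells as in the comparison with Npy-zero neurons.

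Nos1 had 158, 325, 295 and 304 CPM in Npy-high somatostatin neurons and 13.2, 7.57, 4.97 and 3.91 CPM in the Npy neurons without Sst, a log2 change of 5.20 ± 0.30 (edgeR adjusted p = 9.52e-12). Its level without Sst came from 8 UMIs, and the gap appeared in all 4 libraries. Sfrp1 averaged 247 ± 39.9 CPM in Npy-high somatostatin neurons against 13.9 ± 5.82 CPM in Npy neurons without Sst (4.24 ± 0.27), Chodl 165 ± 37.7 against 20.3 ± 9.56 CPM (3.06 ± 0.29) and Lhx6 126 ± 32.2 against 24.4 ± 11 CPM (2.28 ± 0.29). Klf5, Pou3f2, Tacr1 and Nell1 rose by 2.90 to 3.54 on the log2 scale, and Man1a had 108 against 3 UMIs, a ratio of summed shares of 35 (95% counting interval 11.7 to 172). Npy2r averaged 108 ± 44.6 CPM in Npy-high somatostatin neurons and 25.5 ± 9.99 CPM in Npy neurons without Sst (2.06 ± 0.29, edgeR adjusted p = 4.06e-05).

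The Npy neurons without Sst carried other genes instead. Gal, the galanin precursor, had 147, 772, 14 and 9.21 CPM in Npy-high somatostatin neurons and 1876, 1400, 2567 and 856 CPM in Npy neurons without Sst. The groups did not overlap, with a log2 change of -3.06 ± 0.44 (edgeR adjusted p = 4.06e-05), although 191 of the 411 Gal UMIs of the somatostatin neurons lay in 1 cell of female replicate 2, and the change was -5.01 without that library. Nr2f1, a nuclear receptor of forebrain patterning, averaged 8.52 ± 4.44 CPM in Npy-high somatostatin and 69.4 ± 16.1 CPM in the other Npy neurons (-2.87 ± 0.40), and Cartpt 120 ± 66.4 against 370 ± 150 CPM (-1.53 ± 0.18), with overlap between libraries. Cck, Gstm7, Cpne7, Ngb (neuroglobin), Ppp1r1b and Rprm were the remaining genes named by the size of their fall, between -2.53 ± 0.44 and -1.79 ± 0.31; Cck and Ppp1r1b overlapped between groups. Without female replicate 2, Cck stood at -6.11, Ngb at -3.13 and Rprm at -2.77, and Ppp1r1b stood at -1.17 without male replicate 2. None of 12 mitochondrial or 13 early response genes tested passed here.

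No difference between female and male libraries in the share of these neurons passed a test. The share of GABA neurons with at least 10 Sst UMIs was 3.64%, 3.92% and 6.15% in female libraries and 3.06%, 3.91% and 1.51% in male libraries. The ranges overlapped, the highest and lowest values came from the libraries with 4 and 9 such neurons, and the difference was 1.75 percentage points (exact permutation test, two-sided p = 0.2, the smallest possible being 0.1). The share of somatostatin neurons that were Npy-high was 22.4% and 29.9% in 2 female libraries and 29%, 23.5% and 22.2% in 3 male libraries (exact permutation test, two-sided p = 0.7, the smallest possible being 0.1). The tests cover the spread between pools, of which there are at most 3 per sex.

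In gene levels, 8 of 8828 genes passed between female and male somatostatin neurons (0.0906%), 3 higher (0.034%) and 5 lower (0.0566%) in females (edgeR), and 335 had an unadjusted p under 0.05. Without female replicate 1 it was 20 genes and without female replicate 2 it was 18. Of the 8, 5 mark the sex of the cells. Xist had 729 and 661 CPM in females and no UMI in males, and Ddx3y had no UMI in females and 119, 101 and 93.2 CPM in males. Eif2s3y and Kdm5d likewise had no UMI in females, and Uty had 1. The other three were Hspa1a, a heat shock gene (233 and 263 CPM in females, 60.9, 120 and 93.2 CPM in males, 1.48 ± 0.21, edgeR adjusted p = 0.000376, with 174 of 833 UMIs in 1 cell), Avp (56.3 and 79.2 against 22, 9.73 and 72.5 CPM, 1.93 ± 0.35, edgeR adjusted p = 0.0112) and Pvalb. The Avp values overlapped, and its call ended without male replicate 2. The parvalbumin gene Pvalb had 14.4 and 3.91 CPM in females and 122, 51.9 and 0 CPM in males (-3.34 ± 0.50, edgeR adjusted p = 0.00103), with much of the male level in single cells, 48 of 94 UMIs in male replicate 1 and 46 of 48 in male replicate 2.

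The genes that separated Npy-high from Npy-zero neurons were not called between sexes. Nos1 averaged 93.7 ± 32.4 CPM in 2 female and 150 ± 67.8 CPM in 3 male libraries (-0.27 ± 0.23), and Chodl 46.6 ± 20.1 against 47.4 ± 16.2 CPM (-0.05 ± 0.26), both with an edgeR adjusted p of 1. Oxtr had 20.4 and 13.9 CPM in females and 33.7, 38.9 and 41.4 CPM in males, without overlap, but at -1.14 ± 0.30 did not pass (edgeR adjusted p = 0.47). None of 7 steroid and metabolic hormone receptors tested was called. The change with Npy itself differed between females and males in 5 of 7760 genes (0.0644%), 3 higher (0.0387%) and 2 lower (0.0258%) in females (edgeR interaction term), and 302 had an unadjusted p under 0.05. The 3 were Cadps2, Cck and Gal, and the 2 were Pvalb and Mbp. Single cells held much of the level of Gal, Cck and Pvalb: 191 of 378 Gal UMIs of the Npy-high neurons of female replicate 2 lay in 1 cell.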

How the data were processed

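UMI counts per gene and cell, not normalized, were deposited by the authors as 1 table for the 6 libraries, with the library given by the ending of each cell name, per the labels. Cell Ranger 2.0.0 and build mm10 were used, per the submitters' processing notes. Not given in the sources used here are the chemistry, the calling of cells, the counting strand and the annotation. The authors' own cell types were not used here, so the classes are rebuilt from UMI limits. The members and the gene lists were chosen with earlier results of these data known.

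Of 31299 barcodes, 30824 had at least 500 genes and at most 20% mitochondrial UMIs. Doublets were kept; Scrublet in scanpy 1.11.5 (expected rate 0.06) marked 1002 barcodes, 11 of them somatostatin neurons, and leaving them out was an alternative. UMIs were summed per library and cell group with at least 5 cells, and CPM were computed from these sums. The sums were compared with edgeR 4.0.16 (TMM scaling, filterByExpr, quasi-likelihood test, Benjamini-Hochberg adjustment over all genes tested, threshold 0.05). The 11 genes of the rule were left out of the fit and of the library sizes. Standard errors are the size of the log2 change divided by the square root of F. The library was a block wherever both groups came from the same pools of mice. The deviations of the 2 groups of a library correlated at 0.071 to 0.15 in the split by Npy, at 0.15 to 0.27 against other GABA neurons and at 0.068 to 0.20 against Npy neurons without Sst. Between sexes there was no block. Shares were compared by exact permutation tests over libraries. The fits were also run on simulated counts. These had the same gene profile in all libraries and no single cells with outlying counts, so no conclusion about the real sums is drawn from them.

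Genes were named by a rule: in the first 2 comparisons up to 12 called genes per direction with the largest change, the same sign in every library and at least 20 CPM in the higher group, plus up to 3 members of each list by p. Against Npy neurons without Sst the limits were 8 and 2, and between sexes 10 and 1. The genes of the rule, Cort, Nos1, Chodl, Lhx6, Otp, Meis2, Sstr1, Sstr2, Npy1r, Npy2r and Npy5r were always included. A choice of these is described, and some genes are not reported here. Alternatives were DESeq2 1.42.0 and its size factors, no filter, cells thinned to 2000 UMIs, other limits on Sst, Npy and cell number, fits without the block, and each library left out. Gene coordinates are from GENCODE on GRCm38 (mm10). Python 3.11.15, scipy 1.17.1 and R 4.3.3 were used.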

Additional observations from a re-analysis of the deposited data

Results flagged for a closer look

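Of 134 gene differences examined, 14 had 1 library far from the others, and chance gives about 1 in 20. Between Npy-high and Npy-zero neurons, the log2 ratio of Fos was -0.92 in male replicate 2 and 0.94 to 1.20 in the other libraries. Gucy1a3 was 1.25 in female replicate 2 (others 0.95 to 1.00), Satb1 was -2.19 in female replicate 1 (others -1.60 to -1.58) and Zfhx3 was -2.54 in female replicate 2 (others -0.71 to -0.34).

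Between somatostatin and other GABA neurons, male replicate 3, with 9 somatostatin neurons, stood apart in 7 genes. The log2 ratios there were -4.44 for Arpp21 (others -2.15 to -1.86), -0.12 for Bsg (0.12 to 0.20) and -6.48 for Foxp2 (-2.39 to -1.72). They were 3.40 for Moxd1 (3.01 to 3.05) and 3.60 for Nos1 (2.14 to 2.35). Nr3c2 was at -3.12 (-1.03 to -0.28) and Satb1 at 4.06 (2.57 to 2.84). Levels of low genes move in coarse steps in these few neurons, where Kdm5d, Uty and Npy5r all stood at 10.4 CPM. Pde1a was 0.87 in male replicate 1 (others 1.22 to 1.31). In female replicate 1, Rasd1 was -4.94 (others -2.56 to -1.60). Against Npy neurons without Sst, Cck was -0.71 in female replicate 2 (others -5.26 to -4.79).

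By the edgeR interaction term, the change with Npy differed between females and males in 5 genes. Female minus male on the log2 scale, the difference was 7.47 ± 1.66 for Cadps2 (edgeR adjusted p = 0.0345), 6.83 ± 0.96 for Cck (edgeR adjusted p = 1.13e-06) and 6.85 ± 0.48 for Gal (edgeR adjusted p = 1.05e-20). It was -6.18 ± 0.91 for Pvalb (edgeR adjusted p = 3.41e-06) and -1.08 ± 0.24 for Mbp (edgeR adjusted p = 0.0313). In Npy-high neurons of female replicate 2, 1 cell held 191 of 378 Gal UMIs and 1 cell held 91 of 187 Cck UMIs. In those of male replicates 1 and 2, 1 cell each held 48 of 75 and 46 of 46 Pvalb UMIs. Cadps2 had no UMI in Npy-high neurons of either male library, against 39.3 and 42.1 CPM in the Npy-zero neurons. The female libraries went in opposite directions. Npy-high neurons had 21.0 CPM against 49.9 CPM in Npy-zero neurons of female replicate 1, and 38.8 against 20.7 CPM in female replicate 2. Mbp, a myelin gene, had 231 and 247 CPM in female and 599 and 400 CPM in male Npy-high neurons.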

How the results depend on the processing

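Between Npy-high and Npy-zero neurons 263 genes passed. The DESeq2 Wald test called 92 (72 higher and 20 lower), cells thinned to 2000 UMIs gave 63 of 2038 tested, and leaving out 1 library gave 148 to 288. Neurons with at least 100 Sst UMIs gave 74 and those with 10 to 99 gave 14, both with fewer cells and added after seeing the data. Against other GABA neurons (2113 genes) DESeq2 called 1201 and thinned cells 604, and against Npy neurons without Sst (171 genes) DESeq2 called 49, thinned cells 33 of 969 tested, and no filter on low counts gave 297. Between sexes (8 genes) DESeq2 called 5, no filter gave 25 and leaving out 1 library gave 6 to 20. For the interaction (5 genes) DESeq2 called 2. Fewer genes or cells entered some of these settings, and the causes of the changed counts were not tested.

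With no replicate block, 1019 genes passed against other GABA neurons, 103 against Npy neurons without Sst and 199 between Npy-high and Npy-zero neurons. Between sexes the labels do not state that replicate numbers pair the libraries, and a replicate block gave 21 genes. Deviations of libraries with the same number correlated at -0.054 and 0.082. With so few female libraries these values are not independent and cannot decide on pairing.

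The female minus male share of Npy-high neurons, 1.20 percentage points, became -3.57 with at least 20 Sst UMIs, -2.56 without female replicate 2 and -0.158 without male replicate 3, and ranged from -2.56 to 4.95 with 1 library left out. On the log2 scale, the uncalled change of Npy2r with Npy was -0.015 at 100 or more Sst UMIs. At 10 to 99 the uncalled change of Meis2 was 0.26 and that of Pnoc, called over all neurons, was -0.036; Meis2 ranged from -0.79 to 0.13 with 1 library left out. Between sexes Chodl and Nos1, both uncalled, were each 0.20 in thinned cells, and Chodl ranged from -0.67 to 0.24 with 1 library left out. For the genes named in the Npy split, 158 values with 1 library left out kept side and direction and 23 missed the threshold; under other settings these numbers were 407 and 79. In the Npy split the filter on low counts left 7 of 37 peptide receptors and 9 of 29 other neuropeptide genes to test, and female replicate 3, with 4 somatostatin neurons, entered no fit.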
